A study of Mus musculus with 9 samples.

Results

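Brown adipose tissue (BAT) burns lipids to make heat, and it also secretes factors that act on other cells. PPARγ chromatin immunoprecipitation (ChIP)-sequencing peaks at 4 genes for such factors were examined, Fgf21, Nrg4, Vegfa and Bmp8b. Fibroblast growth factor 21 (Fgf21) is a metabolic hormone that signals through FGF receptors with β-Klotho as co-receptor. Neuregulin 4 (Nrg4) is a ligand of ErbB receptors that brown adipocytes release and that acts on liver and nerve. Vascular endothelial growth factor A (Vegfa) drives the growth of capillaries, and bone morphogenetic protein 8b (Bmp8b) sensitizes BAT to sympathetic input. PPARγ is the nuclear receptor that governs adipocyte differentiation and lipid storage. Together with its partner, the retinoid X receptor, it recognizes mostly DR1 elements, in which the hexamer AGGTCA occurs a second time in the same direction after 1 spacer base.

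The peaks were chosen by position, as those whose midpoint lay in a fixed window around each gene on mm10. The first to the last peak spanned chr7:45610765-45629462 for Fgf21, chr9:55207816-55285491 for Nrg4, chr17:45992128-46057565 for Vegfa and chr4:123105965-123140302 for Bmp8b. This gave 38 of the 66066 peaks in the deposited count table, of which 4 were in the Fgf21 window, 15 in the Nrg4 window, 17 in the Vegfa window and 2 in the Bmp8b window. They are numbered within each window along the chromosome, and the 8 counts of a peak are always given in the order of time, from ZT0 in steps of 3 h.

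All libraries were made from interscapular BAT (iBAT) of chow-fed male C57BL/6J mice, 10 weeks old, which were killed at ZT0, ZT3, ZT6, ZT9, ZT12, ZT15, ZT18 or ZT21. Zeitgeber time (ZT) is the time in hours since the onset of the light (inactive) phase, and the dark (active) phase starts at ZT12. Each time point was 1 library from a pool of tissue of 8 mice according to the labels and the study's ChIP methods, while its section on animals gives fewer mice per time point. Without a second pool at any time point, the spread between mice or preparations could not be estimated, and a difference between time points and a difference between libraries cannot be told apart.

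The reads within peaks numbered 29572225 (ZT18) to 34264812 (ZT6). Counts were scaled to a common library size with edgeR's TMM factors and are called normalized counts. The strongest 10% of all peaks took 48.1% of these reads at ZT6, the most of any library, and 44.2% at ZT15, the least, so that strong peaks as a group had higher normalized counts at ZT6. As a check of the labelled tissue, 6 of 7 brown adipocyte marker genes, with Prdm16 the exception, and 5 of 5 general adipocyte markers were the nearest gene of at least 1 PPARγ peak. Of the markers of other cells, 1 of 4 for skeletal muscle, 1 of 3 for leukocytes and 2 of 2 for endothelium had a peak. The mean normalized count of the strongest peak ran from 711 at Cox7a1 to 10490 at Ucp1, which encodes the uncoupling protein, among brown adipocyte markers. It was 1338 at Pecam1 and 507 at Cdh5 (endothelium), 416 at Acta1 (muscle) and 58.2 at Ptprc (leukocytes), and so the peak at Pecam1 was above those of the brown adipocyte markers Cox7a1 and Elovl3 (908). Cell types cannot be separated in these bulk samples, where fewer cells of a type and less binding per cell look the same.

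To show what PPARγ peaks at these genes contain, DR1 elements were searched on both strands in the reference sequence (GRCm38, which is mm10). With up to 2 mismatches among the 12 fixed bases, 17 of the 38 peaks held at least 1 element, and with up to 1 mismatch 5 did. A perfect element was found in 0 of the 38. The 5 closest elements are printed 5′ to 3′ on their own strand with 24 bases on either side and the element in capitals, because each of the 4 genes has at least 1.
Fgf21 peak 1, chr7:45610747-45610807, minus strand: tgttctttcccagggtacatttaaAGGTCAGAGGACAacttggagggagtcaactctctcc
Nrg4 peak 2, chr9:55225925-55225985, minus strand: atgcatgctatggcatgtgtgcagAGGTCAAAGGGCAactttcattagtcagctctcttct
Nrg4 peak 4, chr9:55228470-55228530, minus strand: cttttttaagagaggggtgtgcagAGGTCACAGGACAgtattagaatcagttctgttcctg
Vegfa peak 12, chr17:46029441-46029501, plus strand: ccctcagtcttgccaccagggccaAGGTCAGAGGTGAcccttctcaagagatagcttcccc
Bmp8b peak 1, chr4:123107583-123107643, minus strand: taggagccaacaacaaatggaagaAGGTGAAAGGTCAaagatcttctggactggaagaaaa

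Relative to the DR1 letters, with positions counted from 1 at the 5′ end of the element, the substitution was T11A at Fgf21 and in Nrg4 peak 4, T11G in Nrg4 peak 2, C12G at Vegfa and C5G at Bmp8b. The Fgf21 element lay 3113 bases past the 3′ end of the gene, the Nrg4 elements in introns 7 and 5, the Vegfa element in intron 1 and the Bmp8b element in intron 1. Long peaks hold more such letters by their length alone. Of all peaks within 10% of the length of the 481-base Fgf21 peak 1, 3.39% held an element with up to 1 mismatch, compared with 7.51% at the length of Bmp8b peak 1 (1936 bases) and 26.8% at that of Vegfa peak 12 (9006 bases). In the central 300 bases alone, 6 of the 38 peaks held an element with up to 2 mismatches, compared with 9.69% of 66059 peaks on assembled chromosomes. With up to 1 mismatch this was 0 of the 38 peaks and 2.06% of all peaks, since the 5 printed elements lay 199 to 680 bases from the centre of their peak. The hexamer AGGTCA was present in the central 300 bases of 11 of the 38 peaks and of 26.6% of all peaks.

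**Figure D1:**
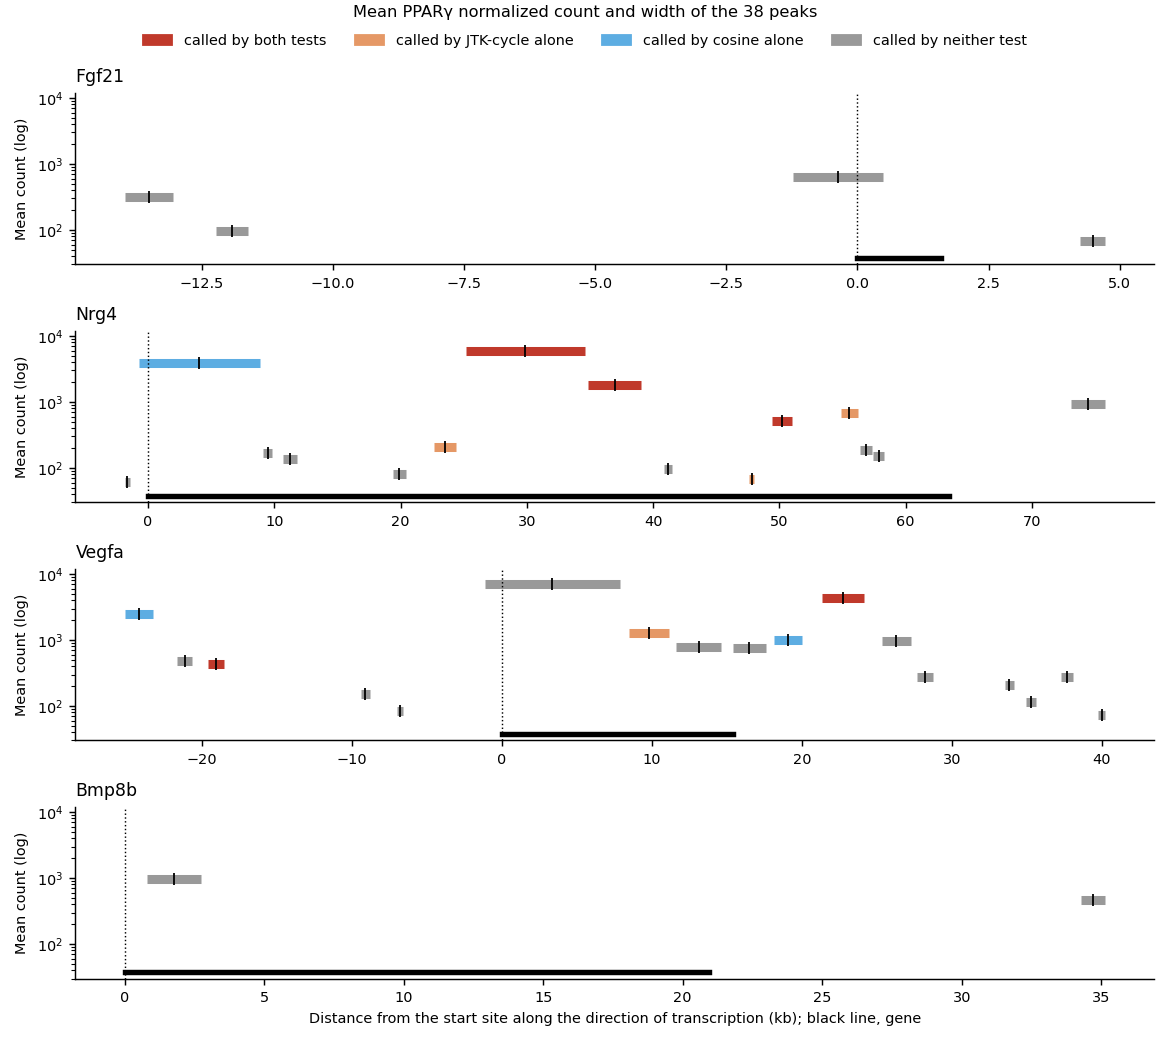
Mean normalized count over the 8 libraries (log scale) of the 38 peaks against the distance of the peak from the start site of its gene in kb, with the length of each bar equal to the width of the peak and a tick at its midpoint. The black line is the gene, and colours show which test called the peak oscillating. Nrg4 and Vegfa were covered by wide peaks with means up to 5891 and 7019, whereas Fgf21 and Bmp8b had few peaks with means up to 632 and 972.

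The extent of PPARγ binding differed between the 4 genes. Vegfa, a gene of 15385 bases, lay to 88.1% within peaks, and Nrg4, a gene of 63404 bases, to 52.0%. For Fgf21 this was 481 of 1601 bases, and for Bmp8b (20934 bases) 9.25%. The map of mean counts against distance from the start site shows 3 peaks over 9 kb wide, of which Nrg4 peak 14 and Vegfa peak 12 spanned the start sites of these genes and Nrg4 peak 9 lay in an intron. Vegfa peak 12 was the strongest of the 38, with a mean normalized count of 7019, and 0.129% of all peaks were stronger. Nrg4 peak 9 followed with a mean of 5891 (0.23% stronger), while the strongest peaks at Bmp8b and Fgf21 had means of 972 (12.1% stronger) and 632 (20.5% stronger). Per kb of peak, the highest mean level was that of Vegfa peak 7, past the 3′ end of the gene, with 1570 reads per kb. It was followed by Vegfa peak 17 upstream of the gene with 1290, by Vegfa peak 12 with 779 and by Nrg4 peak 9 with 620 reads per kb. The highest levels in the other windows were 533 reads per kb in Bmp8b peak 2 and 370 in Fgf21 peak 2.

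Windows of fixed size take in peaks of neighbouring genes. The nearest curated RefSeq start site was that of Rasip1 for Fgf21 peaks 3 and 4, that of Fbxo22 for Nrg4 peaks 1 to 7, and that of Ppie for Bmp8b peak 2. Of these, Nrg4 peaks 2 to 7 were in introns of Nrg4 itself, while Nrg4 peak 1 was in intron 1 of Fbxo22, Fgf21 peak 4 in exon 3 of Rasip1 and Bmp8b peak 2 in intron 1 of Ppie. Over all peaks of the table, assigned by nearest start site, 2 belonged to Fgf21, 8 to Nrg4, 18 to Vegfa and 1 to Bmp8b. The edge of a window decided most narrowly for Bmp8b peak 2, with its midpoint 132 bases inside and a mean of 463. Just outside were a peak with a mean of 482 at Tmem266 beyond one edge of the Nrg4 window, a peak with a mean of 89.2 at the other edge of that window (442 bases beyond) and a peak with a mean of 77.7, 732 bases beyond the Fgf21 window.

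Oscillation was assessed by JTK-cycle, a rank test that sets the 8 values against cosines of 21 or 24 h at 15 period and phase settings and multiplies the smallest exact P value by 15. A peak was called oscillating when this adjusted P value was under 0.05, and the LAG is the estimated time from ZT0 to the highest value. With 8 values, the lowest adjusted P values the exact distribution allows are 0.000744, 0.00595, 0.026 and 0.0826. With a library left out they are 0.00595, 0.0417, 0.161 and 0.452, so that 0.161 is the first step that is not called. The second test was edgeR's quasi-likelihood fit of a cosine of 24 h, with Benjamini-Hochberg adjustment over all peaks.

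JTK-cycle called 9 of the 38 peaks oscillating, of which 6 were at Nrg4, 3 at Vegfa, 0 at Fgf21 and 0 at Bmp8b. Over all 66066 peaks the share was 11.6%. It was 6.9% in the weakest 10% of peaks and 22% in the strongest, which held 7 of the 38 peaks, 4 of them called. The cosine called 8 of the 38, of which 4 were at Nrg4 and 4 at Vegfa, compared with 13.4% of all peaks. Both tests called 5 peaks (6.71% of all peaks) and at least 1 test called 12 (18.3% of all peaks). The LAG of the 9 peaks lay between 6 and 12 h, a range in which 4.54% of all peaks were called. That range was set by the lowest and highest LAG of these same 9 peaks, so the 2 shares cannot show an excess. The LAG was in the light phase for 8 of the 9 (5.96% of all peaks). For 1 it was at 12 h, the onset of the dark phase (dark phase: 5.67% of all peaks). The Wilson intervals of the highest and lowest library, which cover counting error only, did not overlap in 32 of the 38 peaks, and in 83.9% of all peaks. After Benjamini-Hochberg adjustment of these adjusted JTK P values over all peaks, the lowest q value among the 38 was 0.128, and the smallest of any peak was 0.0968.

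The count by JTK-cycle depends on how ties in its reference cosines are handled, since a cosine takes the same value at pairs of these times. With ties broken towards the earlier phase it was 9, and with ties left as ties it was 2 of the 38, Nrg4 peak 6 and Vegfa peak 7, beside 3.28% of all peaks.

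**Figure D2:**
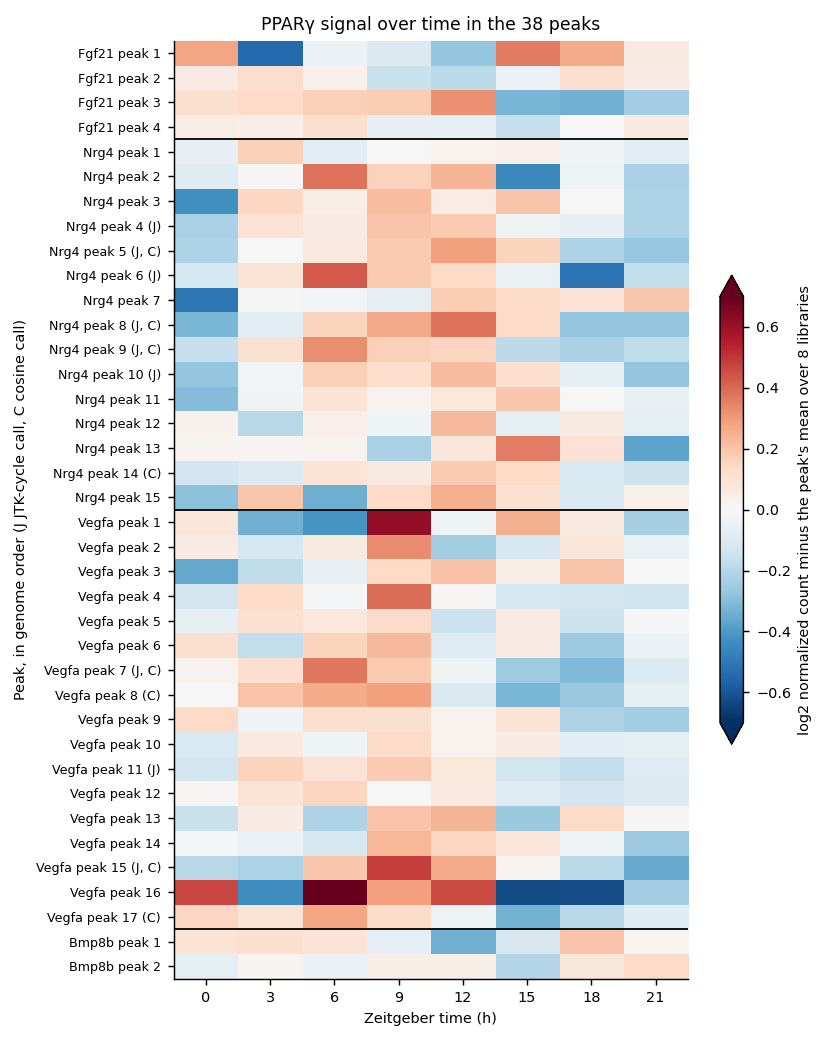
Log2 normalized count of each of the 38 peaks (rows) at the 8 time points (columns), minus the mean of the peak, with red above and blue below the mean. J and C mark calls by JTK-cycle and by the cosine. The highest value fell at ZT6, ZT9 or ZT12, times grouped after the values were seen, in 29 of the 38 peaks and in 37.3% of all peaks.

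At Nrg4, most peaks had their highest PPARγ count at ZT6 (3 peaks), ZT9 (2) or ZT12 (6). Of its 15 peaks, 7 were called by at least 1 test (over all peaks, 18.3%), all of them in introns or over the start site. The highest count was at ZT6, ZT9 or ZT12 in 11 (73.3%, compared with 37.3% of all peaks). These times were grouped after the values of the peaks were seen, so the shares cannot show an excess. The largest change among the strong peaks was that of Nrg4 peak 8 in intron 3, which was 1.62-fold higher at ZT12 than at ZT0. Neighbouring peaks of 1 gene share the same 8 libraries and the same locus, so that they are not independent of each other.

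Nrg4 peak 9 (chr9:55248989-55258486), the strongest at the gene, lay in intron 3 with its midpoint 29888 bases from the start site. Its normalized counts were 5209.8, 6291, 7304, 6558, 6488, 5129.6, 4979.5 and 5165. The 4 values from ZT3 to ZT12 were above the other 4, and the 95% Wilson interval of the highest (7141 to 7470) did not overlap that of the lowest (4841 to 5122). Such intervals cover counting error only. The adjusted exact JTK P value was 0.026 with a LAG of 7.5 h, and the adjusted P value of edgeR's cosine was 0.0033 (amplitude 0.27 ± 0.039 on the log2 scale, least squares estimate ± SE). Cyclic loess is a normalization that takes out changes common to peaks of like strength. With it, the adjusted exact JTK P value was 0.212, and limma's test of the cosine gave an adjusted P value of 0.0532. The level of this peak followed the share of reads in the strongest 10% of peaks (r = 0.95 across the 8 libraries, a description), and its part in the change was not tested. Without the library of ZT6, ZT9 or ZT18 the adjusted exact JTK P value was 0.161.

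Directly downstream in the same intron, Nrg4 peak 8 (chr9:55244585-55248778) had counts of 1447, 1707, 2007, 2172, 2349, 1981, 1496 and 1497. Values increased at every step from ZT0 to ZT12 and were near the value of ZT0 again at ZT18 and ZT21, and the highest time point was 6 h later than in peak 9. The adjusted exact JTK P value was 0.026 with a LAG of 10.5 h, and 0.161 without the library of ZT3 or ZT6. The adjusted P value of edgeR's cosine was 0.00156, with an amplitude of 0.35 ± 0.037 (log2) and a maximum at ZT 10.1 h ± 0.4. The cosine called this peak under each of 15 alternative settings, among which each library was left out in turn.

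Nrg4 peak 5 (chr9:55232652-55234248, intron 5) followed nearly the same course, with 443, 515, 538, 584, 627, 574, 443 and 427 (r with peak 8 = 0.98 over 8 libraries). Both tests called it (adjusted exact JTK P value 0.026 with a LAG of 12 h, adjusted P value of edgeR's cosine 0.0274). Without ZT6, ZT9 or ZT12 its adjusted exact JTK P value was 0.161, and without ZT9, ZT12, ZT15, ZT18 or ZT21 the cosine's adjusted P value (edgeR) was between 0.0563 and 0.0914. Nrg4 peak 4 (chr9:55227437-55228765, intron 5), which held one of the DR1 elements printed above, had 580.1, 728, 706, 781, 771, 662, 652 and 583. It was called by JTK-cycle (adjusted exact P value 0.026, LAG 10.5 h), while the adjusted P value of edgeR's cosine was 0.0703. Without ZT0, ZT9, ZT12, ZT18 or ZT21 its adjusted exact JTK P value was 0.161, and with library totals alone it was 0.0826. Without ZT3 edgeR's cosine gave an adjusted P value of 0.0395.

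A pair of weaker Nrg4 peaks was, like peak 4, called by JTK-cycle and not by the cosine. Nrg4 peak 10 (chr9:55259275-55260959, intron 3) had 174, 206, 235, 228, 244, 228, 201 and 173 (adjusted exact JTK P value 0.026, LAG 10.5 h). Nrg4 peak 6 (chr9:55235603-55236030, intron 5) had 61.3, 71.4, 89.8, 75.8, 73.5, 64.6, 46.6 and 59.3 (adjusted exact JTK P value 0.026, LAG 9 h). Although few reads support it, this peak was called without any single one of the 8 libraries and with ties left as ties, and the adjusted P value of edgeR's cosine was 0.0958. The adjusted exact JTK P value of peak 10 was 0.161 without ZT3 or ZT15 and 0.452 without ZT0, ZT18 or ZT21. It was 0.0826 with DESeq2 size factors, upper-quartile factors or a filter on mean counts under 100.

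The peak over the start site, Nrg4 peak 14 (chr9:55274758-55284369), was called by the cosine only. Its counts were 3507, 3602, 4119, 4019.8, 4362, 4243, 3577 and 3467. They were highest at ZT12 and ZT15 and differed 1.26-fold between the highest and the lowest library (adjusted P value of edgeR's cosine 0.0338, adjusted exact JTK P value 0.0826). Without the library of ZT0, ZT6, ZT12, ZT15, ZT18 or ZT21 the cosine's adjusted P value (edgeR) was between 0.058 and 0.105. With cyclic loess the adjusted exact JTK P value was 0.00595 with a LAG of 15 h, without ZT9 or ZT15 it was 0.0417, and among peaks with a mean count of at least 100 it was 0.026.

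Of the other 8 peaks in the window, 7 were at or beside Nrg4. Peak 2 (intron 7), with the printed DR1 element, had 142, 151, 196, 168, 178, 110.0, 147 and 129, and peak 3 (intron 6) had 139.9, 208, 194, 219, 195, 216, 188 and 161. In both, the lowest value fell outside ZT3 to ZT12, and the adjusted exact JTK P values were 0.915 and 0.212. Peak 7 (intron 3) had 67.4, 95.2, 94.7, 91.6, 108, 105, 102 and 109, and peak 11 (intron 3) had 64.3, 78.0, 85.0, 80.8, 83.7, 90.7, 79.7 and 76.6. These weak peaks were lowest at ZT0 and had adjusted exact JTK P values of 1 and 0.212. Peak 12 (intron 3) had 139.9, 119.9, 140.1, 134, 160.3, 131, 143 and 131, and peak 13 (intron 3) had 172, 171, 172, 145, 179, 217, 181 and 131. Peak 15, upstream of the start site, had 49.0, 68.5, 47.3, 65.98, 71.5, 64.6, 55.9 and 61.3. Peaks 12 and 15 were highest at ZT12 and peak 13 at ZT15, and peaks 11, 12 and 15 had overlapping intervals at their highest and lowest time points. Peak 1, in intron 1 of Fbxo22, which encodes a ubiquitin ligase subunit, had 902, 1054, 889, 938, 954, 962, 922 and 892, a 1.19-fold range with its highest value at ZT3 (adjusted exact JTK P value 1, and 0.0417 without ZT3).

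Vegfa had the most PPARγ signal of the 4 genes. Of 17 peaks, 5 were called by at least 1 test (over all peaks, 18.3%), and they were highest at ZT6 or ZT9. The highest value was at ZT6, ZT9 or ZT12 in 16 of the 17 peaks (94.1%, compared with 37.3% of all peaks). The exception was peak 9, which was highest at ZT0. Here, too, the times were grouped after the values were seen, so the shares cannot show an excess. As at Nrg4, these neighbouring peaks are not independent of each other. The strongest peak, over the start site, was not called by either test.

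Vegfa peak 12 (chr17:46024531-46033536) spanned the start site and most of the gene up to intron 3. Its counts were 7042, 7493, 7766, 6984, 7345, 6572, 6383 and 6564. The 3 lowest values were those of ZT15, ZT18 and ZT21, and the highest was 1.22-fold above the lowest (adjusted exact JTK P value 0.0826, adjusted P value of edgeR's cosine 0.0849, not called). Its amplitude was 0.12 ± 0.026 on the log2 scale (least squares). With cyclic loess the direction turned, from a LAG of 7.5 h to 16.5 h (adjusted exact JTK P value again 0.0826) and from a cosine maximum at 5.9 h to 18.7 h (limma's adjusted P value 0.341). The level of the peak followed the share of reads in the strongest 10% of peaks (r = 0.94 across the 8 libraries), and its part in the change was not tested. With a period of 24 h alone the adjusted exact JTK P value was 0.044, and without ZT9 it was 0.00595.

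Vegfa peak 7 (chr17:46008209-46011008), intergenic and 22769 bases from the start site past the 3′ end of the gene, had the lowest adjusted exact JTK P value of the 38 peaks (0.00595, LAG 6 h). Its counts were 4418, 4700.1, 5597, 4919, 4243, 3650.0, 3500.2 and 4062. Values increased from ZT0 to ZT6, decreased to ZT18 and were 1.60-fold higher at ZT6 than at ZT18 (adjusted P value of edgeR's cosine 0.00251, amplitude 0.28 ± 0.037 on the log2 scale). It was called by JTK-cycle without any single one of the 8 libraries. With cyclic loess the adjusted exact JTK P value was 0.0826, and limma's adjusted P value for the cosine was 0.0442. Beside this, its level followed the share of reads in the strongest 10% of peaks (r = 0.95 across the 8 libraries), and the part of that share in the change was not tested. The ratio of ZT6 to ZT18 was 0.68 on the log2 scale, compared with a median of 0.18 in the strongest 10% of all peaks.

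A further pair of Vegfa peaks was called by the cosine alone. Vegfa peak 8 (chr17:46012344-46014245), between peak 7 and the gene, had 976, 1124, 1172, 1194, 911, 783, 817 and 934 (adjusted P value of edgeR's cosine 0.00988, adjusted exact JTK P value 0.0826). Vegfa peak 17 (chr17:46055669-46057565), 24240 bases upstream, had 2680.0, 2584, 2937, 2647, 2362, 1925, 2114 and 2279.5 (adjusted P value of edgeR's cosine 0.0108, adjusted exact JTK P value 0.212). Both were lowest at ZT15, and they correlated with peak 7 over the 8 libraries (r = 0.94 and 0.93). Peaks 8 and 17 lay on opposite sides of the gene. Like peak 7, they followed the share of reads in the strongest peaks (r = 0.89 and 0.88 across the 8 libraries). The part of that share in these correlations was not tested. For peak 8, edgeR's adjusted P value was 0.0574 without ZT18, and the adjusted exact JTK P value 0.0417 without ZT9. For peak 17, edgeR's adjusted P value was between 0.0518 and 0.0624 without ZT6, ZT15 or ZT18, limma's after cyclic loess was 0.0641, and the adjusted exact JTK P value was 0.0417 without ZT0 or ZT3.

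Vegfa peak 11 (chr17:46021212-46023890, intron 5) had 1183, 1442, 1383, 1468, 1359, 1182, 1147 and 1215, with an adjusted exact JTK P value of 0.026 and a LAG of 7.5 h. The call was kept under 5 of 17 alternatives, the fewest of the 9 peaks called by JTK-cycle. The adjusted exact P value was 0.467 with cyclic loess, 0.452 without ZT18 and 0.161 without ZT0, ZT12, ZT15 or ZT21. The adjusted P value of edgeR's cosine was 0.0622.

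Vegfa peak 15 (chr17:46050952-46051973), 19085 bases upstream of the start site, had a later LAG than the other Vegfa peaks called by JTK-cycle. Its counts were 376, 369, 491, 602, 515, 437, 378 and 337. Values were 1.78-fold higher at ZT9 than at ZT21, and both tests called it (adjusted exact JTK P value 0.026 with a LAG of 10.5 h, adjusted P value of edgeR's cosine 0.00789). Its amplitude of 0.36 ± 0.052 on the log2 scale was the largest of the 12 called peaks, and its course was closer to that of Nrg4 peak 8 (r = 0.89) than to that of Vegfa peak 7 (r = 0.45). With cyclic loess the adjusted exact JTK P value was again 0.026. Without ZT6, ZT9, ZT12, ZT15 or ZT21 it was 0.161, and without ZT9 the adjusted P value of edgeR's cosine was 0.0527.

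The sequence of Vegfa peak 15 is shown because it held a cluster of letters that factors of the circadian clock bind, which was noticed after its values were known. Searched were the E-box CACGTG, bound by CLOCK and BMAL1, and the D-box TTATGTAA or TTACGTAA, bound by DBP and related factors, on both strands. The peak held 3 D-boxes and 2 E-boxes, and 4 of these lay within the 261 bases printed, with the matches in capitals.
Vegfa peak 15, chr17:46051368-46051628, plus strand: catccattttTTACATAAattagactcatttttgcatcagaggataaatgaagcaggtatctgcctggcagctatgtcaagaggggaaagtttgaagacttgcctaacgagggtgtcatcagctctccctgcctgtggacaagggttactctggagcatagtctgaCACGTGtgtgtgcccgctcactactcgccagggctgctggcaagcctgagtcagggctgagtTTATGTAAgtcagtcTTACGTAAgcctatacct

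Of 6839 peaks within 10% of its length, 6.99% held a D-box and 14.8% an E-box, and 3 peaks, this one included, held at least 3 D-boxes (0.0439%). In the central 300 bases, D-boxes were found in 3 of the 38 peaks and in 2.35% of all peaks, and E-boxes in 3 of the 38 and in 5.55% of all peaks. Nrg4 peak 14 held 2 D-boxes and 1 E-box within 169 bases, printed in the same way because this peak, too, is among the 12 called.
Nrg4 peak 14, chr9:55277687-55277855, plus strand: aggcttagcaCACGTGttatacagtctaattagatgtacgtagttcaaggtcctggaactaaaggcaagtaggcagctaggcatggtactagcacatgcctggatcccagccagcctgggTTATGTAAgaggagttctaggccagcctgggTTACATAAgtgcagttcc

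Among peaks of the length of Nrg4 peak 14, 35% held a D-box and 73.3% an E-box. Vegfa peak 5 held 2 E-boxes within 224 bases, not printed, and 15.5% of peaks of its length held an E-box. Neither test called that peak (adjusted exact JTK P value 0.915, adjusted P value of edgeR's cosine 0.646). The printed clusters were picked from called peaks, so they cannot show that such letters go with a call. A match of letters does not show that a factor was bound there, and no such factor was measured in these libraries.

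The 11 Vegfa peaks called by neither test besides peak 12 differed in strength, with means from 73.9 (peak 1) to 963 (peak 6). The median over all peaks was 223. Downstream of the gene, peak 1 had 76.6, 57.1, 54.1, 110.3, 70.5, 85.8, 75.6 and 61.3, and peak 2 had 282, 249, 283, 341, 229, 251, 288 and 263. Peak 3 had 89.9, 102, 111, 127, 133, 119, 132 and 116. Peaks 1 and 2 had a single high value at ZT9, whereas peak 3 was lowest at ZT0. Peak 4 had 188, 226, 204, 269, 206, 188, 187 and 186, and peak 5 had 266, 299, 293, 304, 250.2, 289, 250.5 and 276. Peak 6, closer to peak 7, had 1037, 851, 1068, 1123, 899.7, 994, 802 and 929.8. These were also highest at ZT9, and the adjusted exact JTK P value was lowest for peak 4 (0.0826). For peak 4 it was 0.044 with a period of 24 h alone and 0.0417 without ZT3, ZT6 or ZT12, and for peak 5 it was 0.915, and 0.0417 without ZT12. Peak 9, next to the 3′ end of the gene, had 818, 726, 808, 801, 754, 793, 638 and 626, and peak 10, over the last intron, had 729, 822, 769, 861, 799.7, 817, 744 and 750.0. Upstream, peak 13 had 74.6, 86.6, 71.5, 95.5, 98.0, 69.5, 91.1 and 83.8, and peak 14 had 152, 148, 142, 180.2, 169.5, 163, 150.1 and 129. In these 4 the highest value was 1.18 to 1.41 times the lowest.

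The widest range among the 38 peaks was that of Vegfa peak 16 (chr17:46053075-46054037), 21179 bases upstream, with 627, 335, 745, 553, 621, 293, 295 and 382. Its values did not follow a smooth course: the count at ZT3 was near the lowest, between high counts at ZT0 and ZT6, and the highest value was 2.54-fold above the lowest (adjusted exact JTK P value 1, adjusted P value of edgeR's cosine 0.102). Without the library of ZT0 or ZT3 the adjusted P value of edgeR's cosine was 0.0379 or 0.00506.

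**Figure D3:**
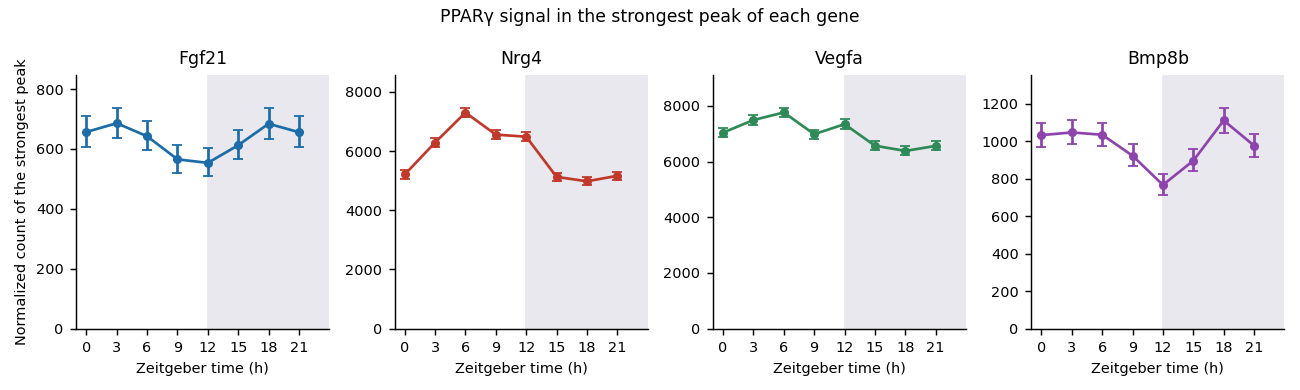
Normalized counts of the strongest peak of each gene (y axes, from 0) at the 8 time points (x axes, ZT in hours), 1 library each, with 95% Wilson intervals as error bars and the dark phase shaded. Nrg4 peak 9 and Vegfa peak 12 were highest at ZT6, whereas Fgf21 peak 2 and Bmp8b peak 1 were lowest at ZT12.

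At Fgf21, neither test called any of the 4 peaks, and the strongest had its low values at the end of the light phase. Fgf21 peak 2 (chr7:45615010-45616717), over the start site, had counts of 657, 686, 642, 565, 554, 612, 684 and 656. The values at ZT9 and ZT12 were the lowest, and the Wilson interval at ZT12 (509 to 602) lay below that at ZT3 (638 to 738). The highest value was 1.24-fold above the lowest, with an adjusted exact JTK P value of 0.212 and an adjusted P value of edgeR's cosine of 0.249. JTK-cycle called it when the library of ZT18 was left out (adjusted exact P value 0.0417).

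The promoter of Fgf21 is shown because it lies inside this peak. The 250 bases before the start site (RefSeq, GRCm38.p6) held an E-box, in capitals, and no DR1 element with up to 2 mismatches. An E-box was found in 7.15% and such a DR1 element in 3.86% of 32851 promoters of 300 bases.
Fgf21, chr7:45615491-45615740, minus strand: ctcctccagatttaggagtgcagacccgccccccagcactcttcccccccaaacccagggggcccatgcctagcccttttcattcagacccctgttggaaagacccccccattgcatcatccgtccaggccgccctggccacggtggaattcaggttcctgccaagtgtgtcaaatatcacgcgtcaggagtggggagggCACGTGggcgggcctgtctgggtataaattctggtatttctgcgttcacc

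Fgf21 peak 1, past the 3′ end of the gene and with the printed DR1 element, had 80.7, 45.7, 64.7, 62.0, 55.1, 85.8, 79.7 and 69.5. It was one of the weakest of the 38, highest at ZT15 and lowest at ZT3. At Rasip1, an endothelial gene next to Fgf21, peak 3 had 103, 105, 107, 108, 119.5, 76.2, 75.6 and 80.7, and peak 4 had 326, 324, 339, 301, 302, 281, 315 and 328. In peak 3 the 5 values from ZT0 to ZT12 were above the other 3, with an adjusted exact JTK P value of 0.467 and an adjusted P value of edgeR's cosine of 0.162.

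At Bmp8b, 1 peak lay in the gene and neither test called it. Bmp8b peak 1 (chr4:123105965-123107900, intron 1) had its midpoint 1772 bases from the start site and counts of 1032, 1046, 1034, 922, 766, 895, 1109.8 and 976. The count at ZT12 was the lowest, with a Wilson interval (713 to 823) below those of the other 7 libraries, and the count at ZT18 was 1.45-fold higher. The adjusted exact JTK P value was 1 and the adjusted P value of edgeR's cosine 0.201, with a fitted maximum near the onset of the light phase. JTK-cycle called it when the library of ZT18 was left out (adjusted exact P value 0.0417). The peak in Ppie, which encodes a cyclophilin of the spliceosome, had 440.2, 469, 450.1, 476, 476, 400.3, 489 and 507 (adjusted exact JTK P value 1).

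For the Nrg4 start site, also inside a PPARγ peak, the 250 bases before the start held the hexamer AGGTCA 2 times on the opposite strand, in capitals as TGACCT, and no DR1 element with up to 2 mismatches. The hexamer was found in 16.3% of promoters. None of the letters searched were found in the promoters of Vegfa and Bmp8b.
Nrg4, chr9:55283626-55283875, minus strand: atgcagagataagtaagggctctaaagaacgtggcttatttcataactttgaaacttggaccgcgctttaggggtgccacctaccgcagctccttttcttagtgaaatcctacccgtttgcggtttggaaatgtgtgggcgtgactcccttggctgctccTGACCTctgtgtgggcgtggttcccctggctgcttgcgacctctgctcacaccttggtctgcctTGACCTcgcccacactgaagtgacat

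**Figure D4:**
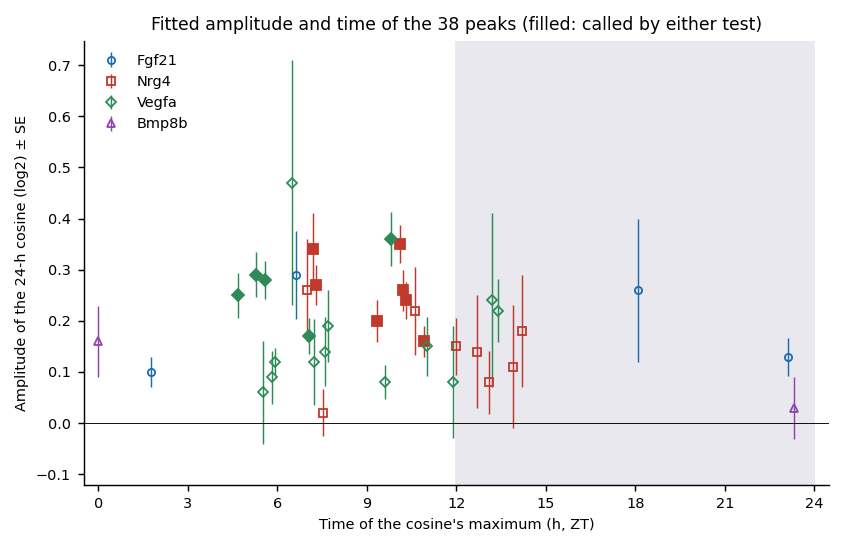
Amplitude of a 24-h cosine fitted by least squares to log2 normalized counts (y axis, ± SE from 5 residual degrees of freedom) against the time of its maximum (x axis, ZT in hours, dark phase shaded) for the 38 peaks. Filled symbols, the 12 peaks called by at least 1 test, had maxima between 4.69 h and 10.9 h, and amplitudes from 0.16 to 0.36.

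Summed over the peaks of a window, PPARγ signal was highest at ZT12 for Nrg4 and at ZT6 for Vegfa. It was lowest at ZT12 for Fgf21 and Bmp8b. Near ties were present: Nrg4 had 16844 at ZT12 and 16817 at ZT6, and Fgf21 had 1030.5 at ZT12 and 1037.0 at ZT9. The sums include the window peaks that lie nearest to neighbouring genes. The sums at Nrg4 were 13099, 15068, 16817, 16262, 16844, 14778, 13215 and 13062. At Vegfa they were 21015, 21613, 23894, 22578, 20966, 18612, 17994 and 19193. The ratio of highest to lowest was 1.29 for Nrg4, 1.33 for Vegfa, 1.13 for Fgf21 and 1.29 for Bmp8b. The strongest peak held 39.6% of the reads for Nrg4 and 33.9% for Vegfa, and 56.9% and 67.7% for Fgf21 and Bmp8b, so these sums follow few peaks, and no test was run on them.

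The plot of fitted amplitude against time shows how the called peaks spread in time, as grouped after their values were seen. Vegfa peaks 7, 8 and 17 had maxima from 4.69 to 5.59 h, while Nrg4 peaks 4, 5, 8, 10 and 14 and Vegfa peak 15 had maxima from 9.34 to 10.9 h, and Nrg4 peaks 6 and 9 and Vegfa peak 11 lay between. The standard errors of these times, 0.4 to 0.79 h, do not cover the choice of normalization. After cyclic loess with limma, the maximum was at 14.0 h for Nrg4 peak 14, 8.9 h for Nrg4 peak 9 and 3.8 h for Vegfa peak 17. It was at 10.2 h for Nrg4 peak 5 and at 9.8 h for Vegfa peak 15, as before. Pairs of Nrg4 peaks correlated with a median r of 0.4 (105 pairs, -0.44 to 0.98) and pairs of Vegfa peaks with a median r of 0.37 (136 pairs, -0.46 to 0.94), compared with a median of 0.24 between the 2 genes (255 pairs) and -0.06 among Fgf21 peaks (6 pairs). These values describe profiles that share the same 8 libraries.

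**Figure D5:**
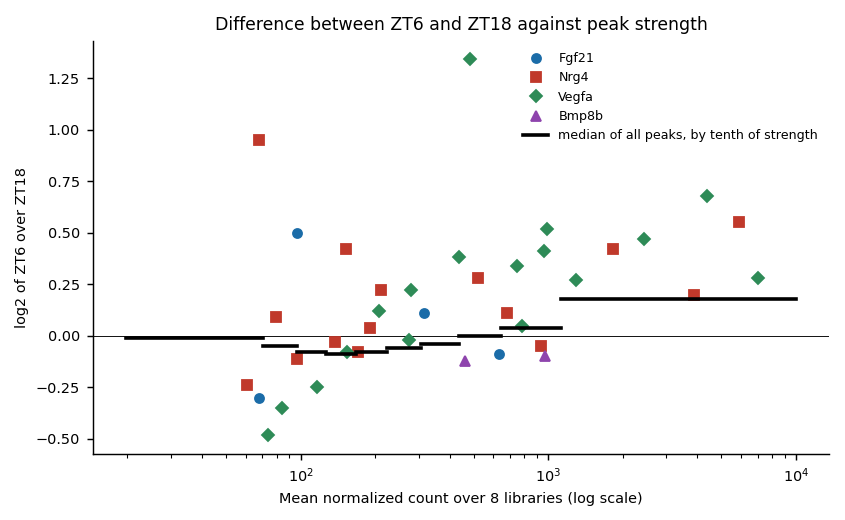
Log2 ratio of the normalized count at ZT6 to that at ZT18 (y axis) against mean normalized count (x axis, log scale) for the 38 peaks, with black lines at the median of all peaks in each 10% of strength. The medians ran from -0.09 to 0.18, and Nrg4 peak 9 (0.55) and Vegfa peak 7 (0.68) lay above the line of their strength class.

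Because strong peaks as a group were higher at ZT6, the change of strong peaks was set beside that of all peaks of like strength. As the plot of the ZT6 to ZT18 ratio against strength shows, the median log2 ratio was 0.18 in the strongest 10% and between -0.09 and 0.04 in the others. Of the 7 peaks in the strongest 10%, the ratio was 0.68 for Vegfa peak 7, 0.55 for Nrg4 peak 9, 0.47 for Vegfa peak 17 and 0.42 for Nrg4 peak 8. It was 0.28 for Vegfa peak 12, 0.27 for Vegfa peak 11 and 0.20 for Nrg4 peak 14. All 7 lay above the median, Nrg4 peak 14 only just, with 1 library at each of the 2 time points. They belong to Nrg4 and Vegfa alone. The spread among peaks of like strength was not examined, so these values cannot show an excess.

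Peaks elsewhere in the genome were ranked by how closely they followed the strongest peak of each gene. Among 35435 peaks outside the windows averaging 200 or more normalized counts, the profile of Nrg4 peak 9 correlated best with peaks nearest to Immt, Slc6a18 and Ung (r = 0.996, 0.993 and 0.992 over 8 libraries), and 2.59% of peaks had an r above 0.9. For Vegfa peak 12 the closest were at Sh3glb1, Gm7244 and Chaserr (r = 0.985, 0.984 and 0.983), and for Fgf21 peak 2 at Gabrg3, 1700042G07Rik and Plau (r = 0.976, 0.974 and 0.974). For Bmp8b peak 1 they were at Gm3716, Mfn2 and Gm11211 (r = 0.977, 0.975 and 0.957), all with the lowest count at ZT12. The share of peaks with an r above 0.9 was 1.03% for Vegfa peak 12, 0.178% for Fgf21 peak 2 and 0.104% for Bmp8b peak 1.

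PPARγ peaks at the receptors of these factors were examined by nearest start site. Of 24 receptor and signalling genes, 20 had a peak, and 27 of their 185 peaks (14.6%, compared with 11.6% of all peaks) were called by JTK-cycle, 12 with a LAG in the light phase and 15 in the dark phase. Nrp2, a co-receptor for VEGF family members, had the most called peaks, 6 of 21, and its strongest called peak had 6409, 6892, 7656, 7012, 6056, 4772, 5247 and 5836. Acvr1c, a TGF-β family receptor of adipocytes, had 3 of 16 called, and the strongest of these had 1719.9, 1771, 2526, 1768, 1712, 1360.1, 1366 and 1804. Fgfr2 had 3 of 18 called, with 1388, 1512, 1859.5, 1540.2, 1533, 1227, 1332 and 1503 in the strongest of them. These 3 peaks were highest at ZT6 and lowest at ZT15 (adjusted exact JTK P value 0.026 for each). Those libraries also had the largest and smallest share of reads in the strongest peaks (48.1% and 44.2%). The part of that share in the common course was not tested. The adjusted P value of edgeR's cosine was 0.00263 for Nrp2, 0.0316 for Acvr1c and 0.101 for Fgfr2. The distances from the start site were 20725, 922 and -107422 bases, in the same order. Among all called peaks of these genes, the LAG was in the dark phase for 1 of 6 at Nrp2, 2 of 3 at Acvr1c and 2 of 3 at Fgfr2. Klb, which encodes the co-receptor β-Klotho, had 2 of 5 called, and Kdr, the main VEGF receptor of endothelium, 1 of 18. Erbb2 and Erbb3 had 0 peaks, and Erbb4 had 1 of 18 called. Among receptors of the BMP family, Bmpr1a had 2 of 13 and Acvr1 2 of 12 peaks called, all with a LAG in the dark phase. These 7 genes were picked after their values were seen.

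Of 15 genes for related ligands, 12 had a peak, and 2 of 32 peaks (6.25%) were called by JTK-cycle, 1 at Nrg2 and 1 at Gdf5, both with a LAG of 15 h in the dark phase. The Nrg2 peak had 988, 862, 896, 947, 1016, 1013, 1007 and 939, and the Gdf5 peak had 623, 590.0, 558, 676, 779, 881, 738 and 641. Both were lowest in the light phase, at ZT3 and ZT6. Bmp8a, the paralog of Bmp8b, and Vegfc had 0 peaks.

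Of 22 genes for other factors secreted by brown fat, 20 had a peak, and 9 of 77 peaks (11.7%) were called by JTK-cycle, 3 with a LAG in the light phase and 6 in the dark phase. Metrnl, which encodes the secreted protein meteorin-like, had 2 of 5 called, and its strongest called peak had 396, 577, 563, 703, 731, 618, 542 and 487. Angptl4, which encodes an inhibitor of lipoprotein lipase, had 1 of 2 called, with 11519, 13017, 15116, 12814, 11830.5, 9271, 10218 and 11312. The cosine called 31 of 185 peaks at receptors (16.8%), 2 of 32 at ligands (6.25%) and 15 of 77 at other secreted factors (19.5%), compared with 13.4% of all peaks (edgeR).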

How the data were processed

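PPARγ ChIP-seq reads were, per the labels and the study's methods, mapped to mm10 with BWA 0.7.17, and peaks were called with MACS2 2.1.2 and kept at FDR under 0.05 in at least 6 libraries. Reads per peak were counted with HTSeq 1.99.2, and the authors deposited these raw counts for 66066 peaks in 8 libraries. The input library of ZT12 and the full sequencing depth were not used here. Counts were scaled by TMM (edgeR 4.0.16, R 4.3.3) and library size to the median library. No filter was applied.

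JTK-cycle was rebuilt in Python 3.11.15 with an exact Kendall null, two-sided, for 21 and 24 h. Its handling of ties and of LAG was set by comparison with a supplementary table of the study, after the data had been seen. The cosine was fitted to the counts with edgeR's quasi-likelihood test (5 residual degrees of freedom, common dispersion 0.0116). With 1 library per time point, P values measure only time order and departure from a cosine. Wilson intervals (95%) cover counting error only. Scripts were tested on simulated data.

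Every peak in the windows was reported. For likeness, the 3 peaks with the highest Pearson r were named, and of each pathway list the 3 genes with the most peaks called. One gene that this rule names is not reported here. Start sites and sequences were taken from RefSeq GRCm38.p6. The peaks and lists were chosen with earlier results of these data known. Alternatives were library totals, DESeq2 1.42.0 size factors and likelihood ratio test, upper-quartile factors, cyclic loess with limma 3.58.1, low-count filters, the period, the threshold, ties and leaving out each library.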

Additional observations from a re-analysis of the deposited data

How the results depend on the processing

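JTK-cycle called 9 of the 38 peaks and 7686 of all peaks. At a threshold of 0.01 it called 1 and 3079, and with reference ties left as ties, an alternative chosen after seeing the data, 2 and 2164. Across other scalings, with a period of 24 h alone and with edgeR's low-count filter, it called 7 to 10 of the 38 and 7275 to 9896 of all peaks. The highest of both counts came with the period of 24 h alone. Among peaks with a mean count of at least 100 it called 7 of 30 in the windows and 6567 of 52193 in total. With each library left out in turn, it called 5 (without ZT21) to 10 of the 38 and 7432 to 10802 of all peaks. The cosine called 8 of the 38 and 8842 of all peaks, and 6 of the 38 and 7242 of all peaks after cyclic loess with limma. With each library left out, it called 4 to 10 of the 38 (5 without ZT15, 4 without ZT18) and 3067 to 11203 of all peaks. Without ZT6, ZT9, ZT12, ZT15 or ZT18 it called 4280, 5609, 5694, 3730 or 3067 of all peaks. Without ZT18, JTK-cycle shared 5 of its 7 calls with the fit over all libraries and added 1 peak each at Fgf21 and Bmp8b. A DR1 element was present in 17 peaks with up to 2 mismatches and in 5 with up to 1. A stricter threshold and fewer mismatches allow fewer calls by construction. Leaving out a library also leaves coarser steps of the exact JTK P value. The causes of the other changes were not tested. No paired analysis was possible because each time point was 1 library. Depth was known only as reads in peaks, and the weakest of the 38 peaks had a mean normalized count of 60.5.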
